A study of Mus musculus with 4 samples.

Results

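The data described here are the transcripts of 48 genes that license, fire and run DNA replication origins and forks, in Neuro-2a cells given the pyrethroid insecticide deltamethrin. The members were taken by gene symbol from the annotation of an Affymetrix Clariom S Mouse array, an expression array that reads most genes with 1 probe set. Of the 48 genes, 47 had a probe set, 1 each, among 19505 named genes in all; Mcm7 was not analysed here. Neuro-2a is a cell line from a neuroblastoma of a mouse of the Albino strain A, and the cells were semi-confluent when exposed. There were 2 arrays of cells given 30 µM deltamethrin for 24 h and 2 arrays of cells given vehicle, 0.1% DMSO, for the same 24 h. All cells came from this 1 line, and the labels name no genetic change. The labels do not say whether the arrays stand for separate cultures. The p-values rest on the spread within the 2 groups of arrays, pooled in part over all probe sets, and that spread may be technical. The question was whether these genes differed between exposed and vehicle-treated cells, and whether the components of licensing, firing and fork work differed alike.

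Replication in mammalian cells proceeds in steps that use different proteins. In G1 the origin recognition complex, Cdc6 and Cdt1 load the MCM helicase on DNA, a step called licensing. In S phase the kinases CDK2 and Cdc7 switch the helicase on by letting Cdc45 and the GINS complex join it, which is called firing. The fork then works with the polymerases alpha, delta and epsilon, the sliding clamp PCNA and its loader RFC, enzymes that join the lagging strand, and chaperones that put histones back. Many of these genes are transcribed in late G1 under E2F factors, and their transcripts are abundant in dividing cells and scarce in resting ones.

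Most replication transcripts had lower estimates in deltamethrin-treated cells, but by limma over all 22206 probe sets only Pclaf, a partner of PCNA, fell at an adjusted p below 0.05. It fell by 1.22 ± 0.16 on the log2 scale (SE, n = 2 arrays per group, adjusted p = 0.0480), which is 2.32-fold. Of the 47 members 1 fell and 0 rose, where 0.0766% of all probe sets were called lower and 0.432% were called in either direction. An estimate below 0 was found for 45 of 47 members, against 53.2% of all probe sets. Both deltamethrin arrays lay below both vehicle arrays for 38 members, against 23.5% of all probe sets, and above them for 1 member, Cdc7, against 20.3%. At an unadjusted p below 0.05, 22 members were lower and 0 were higher, against 6.84% of all probe sets that were lower.

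The median log2 fold change, deltamethrin minus vehicle, was -0.41 over the members, a 1.32-fold lower level, and -0.02 over all probe sets. Every member lay among the 13320 probe sets whose mean level exceeded the 40th percentile, and those brighter probe sets had a median of -0.01. Of them 51.5% had an estimate below 0, 25.6% had both deltamethrin arrays below both vehicle arrays and 7.98% were lower at an unadjusted p below 0.05. The count of called members depended on how the spread was modelled: 12 were called lower with a mean-variance trend (1.38% of all probe sets), and 3 when the test was confined to the brighter probe sets (0.548% of them). Single estimates ran from -1.60 for Cdc6 to 0.15 for Orc2. The median SE of a member's log2 fold change was 0.17. In RNA from whole cultures, fewer cells in S phase and less of each transcript per cell cannot be told apart.

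**Figure D1:**
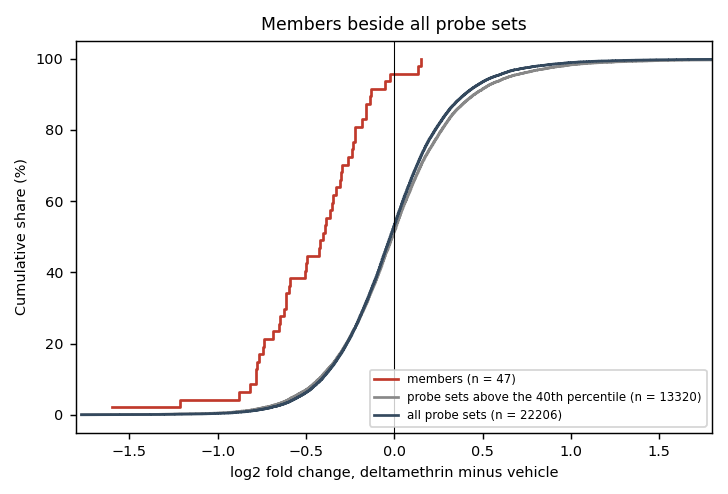
Cumulative share of genes (y axis, %) against the log2 fold change, deltamethrin minus vehicle (x axis), for the 47 members, the 13320 brighter probe sets and all 22206 probe sets. The members' curve lies left of both others, with a median of -0.41, and 45 of its 47 points are below 0.

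**Figure D2:**
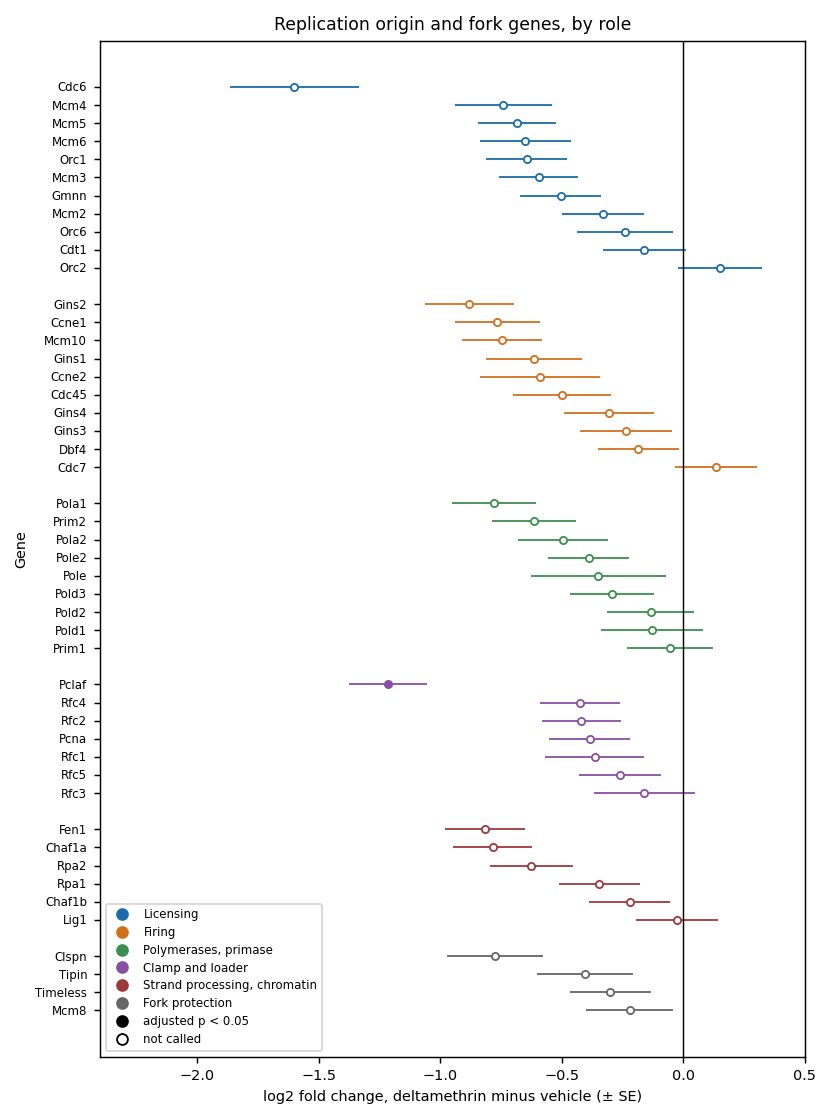
Log2 fold change, deltamethrin minus vehicle, of each of the 47 members (points) with its SE (bars), grouped by role and ordered within each role. Filled points passed an adjusted p below 0.05: only Pclaf is filled, and Orc2 and Cdc7 are the 2 genes right of 0.

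The 4 arrays were alike in overall scale, with medians of 5.61 and 5.63 for the deltamethrin arrays and 5.63 and 5.61 for the vehicle arrays. All 47 members had a mean above the median of all values in at least 1 group. Replicate arrays differed by a little more for members in deltamethrin-treated cells, where the SD of the difference between the 2 arrays was 0.27, than in vehicle-treated cells, where it was 0.17. Neither deltamethrin array was lower throughout: 27 of the 47 members were lower on the second array than on the first. Of 10 sympathetic neuroblast markers 8 were measured, and all 8 lay above the median of all values. Their summed level, on the log2 scale, was 16.91 and 16.75 on the deltamethrin arrays and 17.09 and 17.02 on the vehicle arrays, a sum carried mostly by Stmn2. The 8 markers had a median log2 fold change of -0.38, beside -0.41 for the members, with 7 of 8 lower in estimate. By limma 0 were called. At an unadjusted p below 0.05, 4 were lower and 1 higher, beside 1518 lower and 1517 higher of all 22206 probe sets. With a mean-variance trend 1 marker, Isl1, was called lower, against 1.38% of all probe sets. The transcription factor genes Isl1 and Phox2a were at -1.14 ± 0.17 and -0.77 ± 0.26 (SE), and the catecholamine enzyme genes Dbh and Th at -1.26 ± 0.47 and 0.90 ± 0.27 (named after their values were seen). Dbh replicates differed widely, at 8.83 and 7.71 in deltamethrin-treated cells and 10.09 and 8.96 in vehicle-treated cells. Chga was at -0.50, Hand2 at -0.27, Stmn2 at -0.15 and Mycn at -0.12. The part of these cell identity markers in the members' shift was not tested. Markers of other cell types were dim. For astrocytes 0 of 6 measured genes lay above that median, for microglia and macrophages 1 of 6, for fibroblasts 0 of 5, and for Schwann cells and oligodendrocytes 0 of 4. Summed levels of those 4 lists ran from 5.54 to 6.93 on the deltamethrin arrays and from 5.58 to 6.91 on the vehicle arrays.

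The promoters of the members were read for the core of the E2F site, since the members tended to shift one way and many are known E2F targets. RefSeq promoter windows of 250 bases before to 50 bases after the gene start (build GRCm38.p6) were at hand for 37 of the 47 measured members. The core was searched on either strand as TTNNCGC, where each N was C or G. It was present in 24 of 37 members (64.9%), against 10.9% of all 27025 genes with a window and 13.7% of the 17492 protein-coding ones. By promoter windows, of which a gene can have several, the share was 9.6% of 32851. These backgrounds were not matched to the members for base composition or expression level. There were 45 matches over all windows of these members, so a site in several windows of a gene could count more than once. Of these matches 5 pairs overlapped, each a match on 1 strand with a match on the other.

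Only matches to the searched letters were printed, so the likeness of the E2F cores follows from the search and is not a result. The sequences printed here come from members whose estimates differ. They are the cores nearest to the gene start on its upstream side in the 8 members of lowest estimate that had one there, and in Prim1 and Cdc7, whose estimates were near 0. Each is 41 bases of the gene's own strand, 5′ to 3′, with the core in capitals; a core that begins with GCG is the match on the opposite strand.
Pclaf: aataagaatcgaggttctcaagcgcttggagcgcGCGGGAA
Cdc6: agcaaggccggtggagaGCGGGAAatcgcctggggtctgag
Fen1: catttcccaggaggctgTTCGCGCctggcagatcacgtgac
Chaf1a: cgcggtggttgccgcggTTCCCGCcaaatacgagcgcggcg
Pola1: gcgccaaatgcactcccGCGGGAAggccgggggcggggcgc
Mcm5: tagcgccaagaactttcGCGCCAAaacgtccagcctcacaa
Mcm6: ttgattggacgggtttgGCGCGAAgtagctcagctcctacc
Orc1: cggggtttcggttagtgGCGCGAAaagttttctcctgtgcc
Prim1: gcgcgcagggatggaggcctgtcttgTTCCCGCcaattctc
Cdc7: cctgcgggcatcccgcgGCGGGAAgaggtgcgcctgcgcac

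The Pclaf window, chr9:65890284-65890324 on the plus strand, ends inside the first bases of the transcript. The Cdc6 window is chr11:98907996-98908036 (plus strand), the Fen1 window chr19:10203932-10203972 (minus) and the Chaf1a window chr17:56040352-56040392 (plus). Those of Pola1 and Mcm5 are chrX:93632253-93632293 (minus) and chr8:75109343-75109383 (plus). The Mcm6 window is chr1:128359725-128359765 (minus) and that of Orc1 chr4:108579410-108579450 (plus). The Prim1 window is chr10:128015174-128015214 (plus) and the Cdc7 window chr5:106964509-106964549 (plus). Counted from the start as 1, with no position 0, the last base of the core lay between -143 (Mcm5) and -9 (Prim1), and at 2 for Pclaf. A match to these letters is a description and not a bound site.

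Members with and without a core had overlapping ranges of shift, and the difference between them was not tested. The 24 with a core had a median log2 fold change of -0.41 (range -1.60 to 0.14), and the 13 without had one of -0.33 (range -0.77 to 0.15). Cdc6 and Pclaf, the 2 lowest, had a core, but so did Cdc7, Prim1 and Lig1, which had estimates of 0.14, -0.06 and -0.03. Ccne1 and Mcm10 had estimates of -0.77 and -0.75 with no match to these letters in the window. Sites of other letters or outside the window were not searched for, so no match does not mean no E2F site. Of 2 further motifs, CCAAT was found in 22 of 37 members (59.5%), against 41.1% of all genes and 42.3% of protein-coding ones. TTTGAA, the core of the cell cycle homology region of late cell cycle genes, was found in 7 of 37 (18.9%), against 20.2% of all genes and 18.5% of protein-coding ones. Both were searched on either strand. Members with CCAAT had a median log2 fold change of -0.442 and those without -0.295. For TTTGAA the medians were -0.235 with and -0.388 without, and neither difference was tested.

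**Figure D3:**
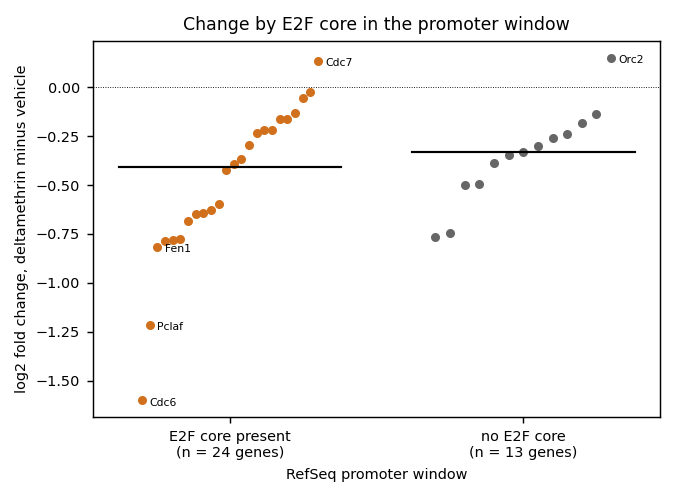
Log2 fold change, deltamethrin minus vehicle (y axis), of the 24 members with an E2F core in the RefSeq promoter window and the 13 without (points, ordered by value), with the median of each as a line. The medians, -0.41 and -0.33, are close, and both columns hold genes near 0.

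Licensing genes had a median log2 fold change of -0.60, and 10 of the 11 measured had lower estimates. By limma 0 were called, and 7 were lower at an unadjusted p below 0.05, against 6.84% of all probe sets. Cdc6, the loader that brings the helicase to the origin, had the lowest estimate of any member. Its log2 level was 9.77 and 9.02 on the deltamethrin arrays and 10.96 and 11.03 on the vehicle arrays. The deltamethrin arrays differed widely from each other, yet both lay more than a log2 unit below both vehicle arrays. The log2 fold change was -1.60 ± 0.26 (SE), 3.03-fold lower, with an adjusted p of 0.0864 in limma. It passed the threshold when dim probe sets were left out (adjusted p = 0.0359) or with a mean-variance trend (adjusted p = 0.00532), and over all alternatives the adjusted p ran from 0.00532 to 0.678.

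The measured subunits of the origin recognition complex had estimates from -0.65 to 0.15, and differences between them were not tested. Orc1, the subunit whose amount varies with the cell cycle, was at 8.39 and 8.37 in deltamethrin-treated cells and 9.10 and 8.95 in vehicle-treated cells, a log2 fold change of -0.65 ± 0.17 (adjusted p = 0.192). These groups did not overlap. Orc2, a core subunit, was at 11.50 and 11.59 in deltamethrin-treated cells and 11.50 and 11.29 in vehicle-treated cells. Its groups met at 11.50, and its estimate of 0.15 had a 95% interval of -0.27 to 0.57. Orc6, the smallest subunit, had an estimate of -0.24 ± 0.20, with 1 deltamethrin array level with the lower vehicle array at 10.98.

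All 5 measured subunits of the MCM helicase, Mcm2 to Mcm6, had both deltamethrin arrays below both vehicle arrays, against 23.5% of all probe sets. Of the 5, 4 were lower at an unadjusted p below 0.05, against 6.84% of all probe sets. Mcm5 was at 12.43 and 12.46 in deltamethrin-treated cells and 13.14 and 13.12 in vehicle-treated cells (log2 fold change -0.69 ± 0.16, adjusted p = 0.169). Mcm4 was at 11.51 and 11.89 against 12.36 and 12.52 in vehicle-treated cells (-0.74 ± 0.20). Mcm3 and Mcm6 had estimates of -0.60 ± 0.16 and -0.65 ± 0.19. These 4 subunits lay close together. All were called lower with a mean-variance trend (adjusted p = 0.0141 to 0.0360), as were 1.38% of all probe sets. With 1 array left out their estimates ran from -0.93 (Mcm4) to -0.495 (Mcm6). Mcm2 had the smallest shift of the 5: 13.46 and 13.65 in deltamethrin-treated cells, 13.88 and 13.89 in vehicle-treated cells, and a log2 fold change of -0.33 ± 0.17 (adjusted p = 0.457).

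Cdt1, which works with Cdc6 to load the helicase, and its inhibitor geminin, encoded by Gmnn, had estimates of different size. Cdt1 was at 13.77 and 13.96 in deltamethrin-treated cells and 14.02 and 14.03 in vehicle-treated cells, with an estimate of -0.16 (95% interval -0.57 to 0.25). Gmnn was at 8.88 and 8.90 in deltamethrin-treated cells and 9.32 and 9.47 in vehicle-treated cells, with an estimate of -0.51 ± 0.17 (adjusted p = 0.274). The groups of both genes were apart, by far less for Cdt1.

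**Figure D4:**
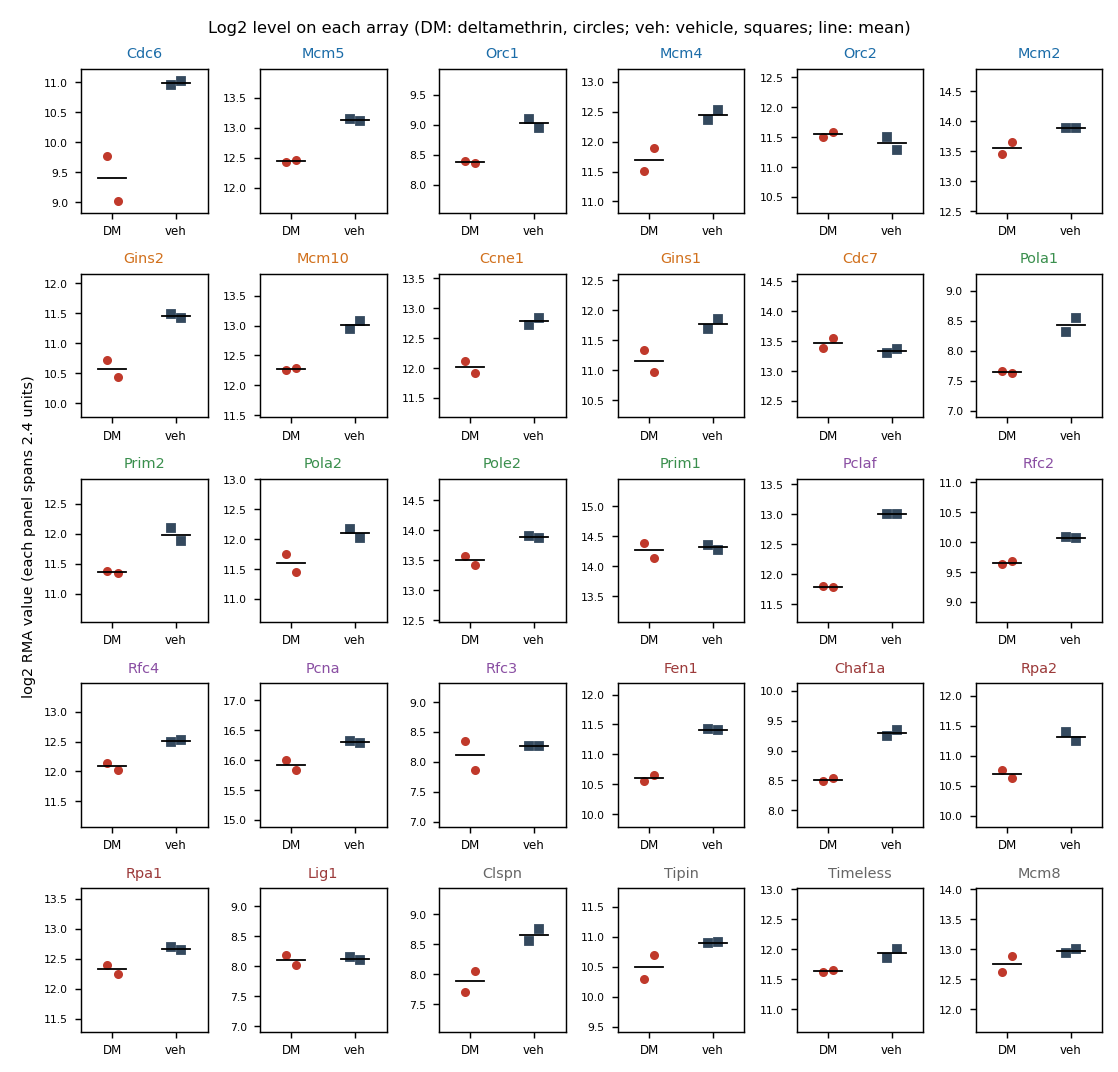
Log2 level (y axis, each panel spanning 2.4 log2 units) on each deltamethrin array (circles) and each vehicle array (squares) for 30 members chosen within each role mainly by p-value, the mean of each group as a line and title colours by role. Cdc6 and Pclaf show the widest gaps, Pclaf with replicates close together (11.80 and 11.78 with deltamethrin against 13.00 and 13.01 with vehicle) and Cdc6 with spread deltamethrin arrays. Orc2, Prim1, Rfc3 and Lig1 have groups that meet or overlap.

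Firing genes had a median log2 fold change of -0.55, with 9 of 10 lower in estimate. Both deltamethrin arrays lay below both vehicle arrays for the same count of 9, against 23.5% of all probe sets. By limma 0 of the firing genes were called, and 5 were lower at an unadjusted p below 0.05, against 6.84% of all probe sets. Gins2, a subunit of the GINS ring that joins Cdc45 and MCM in the active helicase, was the lowest. It was at 10.72 and 10.43 in deltamethrin-treated cells and 11.49 and 11.42 in vehicle-treated cells, a log2 fold change of -0.88 ± 0.18 or 1.84-fold lower (adjusted p = 0.137). Gins1 was at 11.34 and 10.97 against 11.69 and 11.85 in vehicle-treated cells (-0.62 ± 0.20). The other GINS subunits, Gins3 and Gins4, had estimates of -0.24 and -0.31. The 4 subunits were all lower without overlap, with a median of -0.46, and whether their shifts differ was not tested.

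Mcm10, which helps the assembled helicase start to unwind, was at 12.25 and 12.29 in deltamethrin-treated cells and 12.95 and 13.08 in vehicle-treated cells (log2 fold change -0.75 ± 0.17, adjusted p = 0.149). Cdc45 had an estimate of -0.50 ± 0.20, from 11.60 and 11.95 in deltamethrin-treated cells and 12.15 and 12.40 in vehicle-treated cells. Among the cyclins that switch on CDK2, Ccne1 was at 12.12 and 11.91 in deltamethrin-treated cells and 12.72 and 12.84 in vehicle-treated cells (-0.77 ± 0.17, adjusted p = 0.160). Ccne2 varied more within each group and had an estimate of -0.59 ± 0.25. With a mean-variance trend Gins2, Mcm10 and Ccne1 were called lower (adjusted p = 0.0117 to 0.0157), as were 1.38% of all probe sets.

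The subunits of the kinase that acts on MCM had the 2 estimates nearest to 0 among the firing genes. Cdc7, the catalytic subunit, was at 13.39 and 13.55 in deltamethrin-treated cells and 13.30 and 13.37 in vehicle-treated cells, so that its deltamethrin arrays lay just above. Its log2 fold change was 0.14 ± 0.17 with a 95% interval of -0.27 to 0.54. Dbf4, the activating subunit, had an estimate of -0.19 ± 0.17, from 12.09 and 12.25 in deltamethrin-treated cells and 12.36 and 12.35 in vehicle-treated cells.

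Fork genes had a median log2 fold change of -0.38, smaller than those of licensing and firing, and all 26 had lower estimates. Of the 26, 1 fell (Pclaf), against 0.0766% of all probe sets, and 10 were lower at an unadjusted p below 0.05, against 6.84%. Both deltamethrin arrays lay below both vehicle arrays for 20 of them, against 23.5% of all probe sets. Relative to each gene's vehicle mean, the fork median was -0.35 and -0.40 on the deltamethrin arrays. For licensing it was -0.57 and -0.55, and for firing -0.36 and -0.56. The firing genes lay near the fork genes on the first deltamethrin array and near the licensing genes on the second, and single genes ranged widely in each class. These class differences were not tested, and an exact permutation test on 2 against 2 arrays cannot give a p below 0.333.

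**Figure D5:**
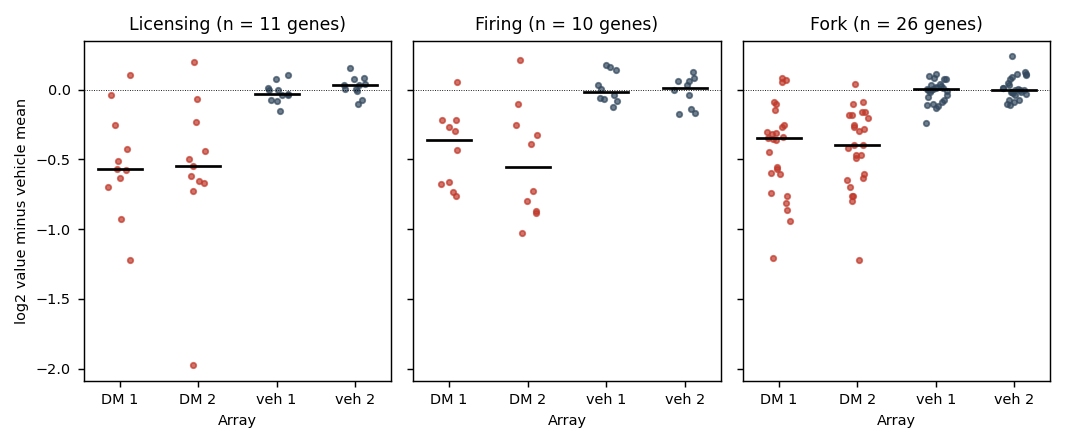
Log2 value minus the gene's vehicle mean (y axis) on each of the 4 arrays for the 11 licensing, 10 firing and 26 fork genes (points), with the median as a line. On both deltamethrin arrays (DM 1 and DM 2) the medians lie between -0.35 and -0.57, and on the vehicle arrays (veh 1 and veh 2) within 0.03 of 0.

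Among polymerases and primase, 9 of 9 estimates were below 0, and the median log2 fold change was -0.35. By limma 0 were called, and 3 were lower at an unadjusted p below 0.05, against 6.84% of all probe sets. All 3 were in polymerase alpha and primase, the complex that lays the first primer. Pola1, the catalytic subunit, was at 7.66 and 7.63 in deltamethrin-treated cells and 8.31 and 8.54 in vehicle-treated cells (-0.78 ± 0.17, adjusted p = 0.150). Pola2, the second subunit, was at 11.75 and 11.45 against 12.17 and 12.02 in vehicle-treated cells (-0.50 ± 0.19). Prim2, the large primase subunit, was at 11.38 and 11.35 against 12.09 and 11.87 in vehicle-treated cells (-0.62 ± 0.17, adjusted p = 0.217). These 3 subunits were lower without overlap, as were 23.5% of all probe sets. Prim1, which makes the primer, was at 14.39 and 14.14 in deltamethrin-treated cells and 14.36 and 14.28 in vehicle-treated cells; its estimate was -0.06 with a 95% interval of -0.48 to 0.37.

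The replicative polymerases delta and epsilon had smaller estimates. For polymerase delta, which copies the lagging strand, the catalytic Pold1 had an estimate of -0.13, Pold2 one of -0.14 and Pold3 one of -0.30. The groups of Pold1 and Pold2 overlapped and those of Pold3 did not. For polymerase epsilon, which copies the leading strand, the catalytic Pole was at 8.26 and 9.04 in deltamethrin-treated cells and 8.89 and 9.11 in vehicle-treated cells. Its estimate of -0.35 ± 0.28 rested on the first deltamethrin array. Without that array it was 0.04. Pole2, its second subunit, was at 13.58 and 13.42 in deltamethrin-treated cells and 13.91 and 13.87 in vehicle-treated cells (-0.39 ± 0.17, adjusted p = 0.379).

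The clamp and its loader had 7 of 7 lower estimates and a median log2 fold change of -0.39. By limma 1 was called, against 0.0766% of all probe sets, and 3 were lower at an unadjusted p below 0.05, against 6.84%. Pclaf, which binds the clamp during S phase, had a log2 level of 11.80 and 11.78 in deltamethrin-treated cells and 13.00 and 13.01 in vehicle-treated cells. Replicates were tight, with a mean of 11.79 ± 0.01 in deltamethrin-treated cells and 13.01 ± 0.01 in vehicle-treated cells (SD, n = 2). The call was close to the threshold: the adjusted p was 0.0480, and 0.0502 after quantile normalization or 0.0508 with robust moderation, in a range of 0.000878 to 0.678 over all alternatives. The estimate itself stayed between -1.23 and -1.20 under all of them. Leaving out either deltamethrin array or either vehicle array left it uncalled (adjusted p = 0.364 to 0.678), as it did every other probe set.

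Pcna, the clamp itself, was at 16.00 and 15.84 in deltamethrin-treated cells and 16.32 and 16.29 in vehicle-treated cells (log2 fold change -0.39 ± 0.17, adjusted p = 0.384). Its groups did not overlap, and its estimate was 1.31-fold lower beside 2.32-fold for its partner Pclaf. In the clamp loader, Rfc2 was at 9.63 and 9.68 in deltamethrin-treated cells and 10.09 and 10.06 in vehicle-treated cells (-0.42 ± 0.16). Rfc4 was at 12.15 and 12.02 against 12.50 and 12.52 in vehicle-treated cells (-0.43 ± 0.17). Both small subunits were lower at an unadjusted p below 0.05 and uncalled after adjustment. The large subunit Rfc1 and the small subunit Rfc5 had estimates of -0.37 and -0.26, and Rfc3, whose deltamethrin arrays of 8.35 and 7.87 lay on either side of 8.27 and 8.27 in vehicle-treated cells, had one of -0.16.

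Genes of strand processing and chromatin assembly had 6 of 6 lower estimates and a median log2 fold change of -0.49. By limma 0 were called, and 3 were lower at an unadjusted p below 0.05, against 6.84% of all probe sets. Fen1, the nuclease that trims flaps between lagging-strand fragments, was at 10.55 and 10.65 in deltamethrin-treated cells and 11.42 and 11.41 in vehicle-treated cells. Its log2 fold change was -0.82 ± 0.16, 1.76-fold lower (adjusted p = 0.131), and it was called lower when dim probe sets were left out (adjusted p = 0.0495) or with a mean-variance trend (0.0150), in a range of 0.0150 to 0.678 over all alternatives. Lig1, the ligase that seals those fragments after Fen1, was at 8.18 and 8.02 in deltamethrin-treated cells and 8.15 and 8.10 in vehicle-treated cells. The Lig1 groups overlapped, and its estimate of -0.03 had a 95% interval of -0.43 to 0.38. So the 2 enzymes of 1 step had estimates that differed by most of a log2 unit, a difference that was not tested.

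Chromatin assembly factor 1 places new histones behind the fork, and its subunits also differed in estimate. Chaf1a, the large subunit, was at 8.49 and 8.54 in deltamethrin-treated cells and 9.25 and 9.35 in vehicle-treated cells (log2 fold change -0.79 ± 0.16, adjusted p = 0.139). Chaf1b, the middle subunit, had an estimate of -0.22 ± 0.17, from 12.69 and 12.54 in deltamethrin-treated cells and 12.84 and 12.83 in vehicle-treated cells. Of the single-strand binding protein RPA, Rpa2 was at 10.76 and 10.62 in deltamethrin-treated cells and 11.39 and 11.24 in vehicle-treated cells (-0.63 ± 0.17, adjusted p = 0.208). Rpa1, the large subunit, was at 12.40 and 12.25 against 12.70 and 12.64 in vehicle-treated cells (-0.35 ± 0.17). All 4 genes were lower without overlap, as were 23.5% of all probe sets.

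The fork protection genes had 4 of 4 lower estimates and a median log2 fold change of -0.35. All 4 had both deltamethrin arrays below both vehicle arrays, against 23.5% of all probe sets. Clspn encodes claspin, which couples the fork to the checkpoint kinase CHK1; it was at 7.71 and 8.05 in deltamethrin-treated cells and 8.55 and 8.76 in vehicle-treated cells (-0.78 ± 0.20, adjusted p = 0.187). Timeless and Tipin form the pair that holds helicase and polymerase together. Tipin was at 10.30 and 10.70 in deltamethrin-treated cells and 10.89 and 10.92 in vehicle-treated cells (-0.41 ± 0.20). Timeless was at 11.62 and 11.65 in deltamethrin-treated cells and 11.86 and 12.01 in vehicle-treated cells (-0.30 ± 0.17). Mcm8, a helicase of recombination repair outside the MCM ring, was at 12.62 and 12.89 against 12.94 and 13.01 in vehicle-treated cells (-0.22 ± 0.18). By limma 0 of the 4 were called, and claspin alone was lower at an unadjusted p below 0.05, against 6.84% of all probe sets.

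Across the 47 genes the size of the shift had little relation to the level in vehicle-treated cells, with Pearson's r = 0.06 and Spearman's rho = 0.12 across genes, which share the 4 arrays and are not independent. Some partners had estimates that lay close together, such as Mcm3 to Mcm6 (-0.74 to -0.60), Rfc1, Rfc2 and Rfc4 (-0.43 to -0.37) and Tipin and Timeless (-0.41 and -0.30). Others lay further apart, such as Fen1 and Lig1 (-0.82 and -0.03) or Chaf1a and Chaf1b (-0.79 and -0.22). The close examples leave out Mcm2 (-0.33), Rfc3 (-0.16) and Rfc5 (-0.26), which are subunits of the same complexes. These examples were picked after their values were seen, and no difference between partners was tested.

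Other replication genes outside the members had mostly lower estimates. Of 39 such genes 37 were measured, 30 had lower estimates (median log2 fold change -0.31) and 0 were called by limma. At an unadjusted p below 0.05, 15 were lower and 1 higher, beside 1518 lower and 1517 higher of all 22206 probe sets. Ticrr, the vertebrate partner that helps CDK2 load Cdc45, was at 9.24 and 9.33 in deltamethrin-treated cells and 10.62 and 10.43 in vehicle-treated cells (-1.24 ± 0.17, adjusted p = 0.0537). Skp2, a ubiquitin ligase subunit that targets Cdt1 and p27, had an estimate of -1.05 ± 0.17. Cdc25a, the phosphatase that activates CDK2, had one of -1.12 ± 0.18. The 1 gene higher at that p was the helicase gene Recql4, at 0.70 ± 0.18, named after its value was seen.

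Genes that feed or control replication were counted in the same fit. In deoxynucleotide supply, 8 of 10 measured genes had lower estimates (median -0.61) and 1 fell, against 0.0766% of all probe sets. It was the ribonucleotide reductase subunit gene Rrm2, at 13.10 and 12.99 in deltamethrin-treated cells and 14.37 and 14.29 in vehicle-treated cells. Its log2 fold change was -1.29 ± 0.17 (adjusted p = 0.0464 in limma). Thymidine kinase Tk1 and deoxycytidine kinase Dck had estimates of -0.87 and -0.80, and Rrm2b, the subunit used outside S phase, had one of 0.72 ± 0.19 (named after its value was seen). Of 16 probe sets for 15 E2F, pocket protein and partner genes, 14 had lower estimates (median -0.56) and 1 fell, against the same 0.0766%. It was that of the repressor E2f7, at 8.78 and 8.80 in deltamethrin-treated cells and 10.51 and 10.42 in vehicle-treated cells (adjusted p = 0.0245 in limma). The second atypical repressor, E2f8, was at -1.04 and Mybl2, an activator of late cell cycle genes, at -1.01. The activator E2f1 (named after its value was seen) had an estimate of -0.81 ± 0.20.

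Checkpoint genes were mixed, with 6 of 9 lower in estimate, a median of -0.30 and 0 called by limma. At an unadjusted p below 0.05, 3 were lower and 0 higher, where 6.84% of all probe sets were lower. The lowest p-values were those of Wee1 (-0.55), Etaa1 (-0.51) and Hus1 (-0.46). All 19 measured mitosis genes had lower estimates, with a median of -0.59 and 0 called by limma. Of the 19, 13 were lower at an unadjusted p below 0.05, against 6.84% of all probe sets. With a mean-variance trend, which called 12 of the 47 members lower, 11 of these 19 mitosis genes were called lower. With it 12 of the 37 other replication genes and 5 of the 16 E2F and pocket protein probe sets were called lower as well. So were 4 of the 10 deoxynucleotide genes, against 1.38% of all probe sets. With the trend 1 deoxynucleotide gene, Rrm2b, was called higher, as were 500 of all 22206 probe sets. The proliferation antigen gene Mki67 was at -0.95, the spindle kinase genes Ttk and Aurkb at -0.79 and -0.63. The mitosis median lay beyond that of the replication members, -0.41. The CDK inhibitors, D-type cyclins and their kinases had a median of 0.04 over the 11 measured of 12 listed genes. By limma 0 were called and 0 were at an unadjusted p below 0.05. Only 8 of the 11 had a mean above the median of all values in at least 1 group, and the rest were dim. Cdkn1a, which encodes the CDK inhibitor p21, was at 0.24 ± 0.18, Ccnd3 at -0.33 and Cdkn2d at -0.31.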

How the data were processed

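The deposited values are log2 values, 1 per probe set and array with 2 decimals, made by the authors with RMA, which corrects background, aligns arrays and summarises probes. Per the submitters' processing notes the tools were RMA and Transcriptome Analysis Console, whose versions no label states. That the scale is log2 follows from the range of the values, 1.92 to 18.75. Symbols came from the platform annotation, checked against RefSeq by Entrez ID, and 0 needed an update. Groups and replicate numbers came from the sample titles. Deltamethrin minus vehicle was fitted over all 22206 probe sets in R 4.3.3 with limma 3.58.1 (lmFit, then eBayes with its defaults; 2 residual and 4.43 prior degrees of freedom). Two-sided p-values were adjusted by Benjamini-Hochberg over the whole table, and calls needed an adjusted p below 0.05. "Fell" and "rose" are used for calls. The fit was tested on simulated data. The number of arrays limits the precision, and no detection call was given.

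All members could be named. Those given on every array were, per role, called genes, those of smallest p up to 4 and the 1 of largest p, with Mcm2 and Pcna, plus a few more added after their values were seen. Other lists gave called genes and those of smallest p up to 3. The members and lists were chosen with earlier results of these data known. Alternatives were a replicate block, a filter on dim probe sets, quantile, cyclic loess and median scaling, each array left out, other variance models, an adjusted p below 0.01 and 1 probe set per gene. The planned protein motif scan was not run.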

Additional observations from a re-analysis of the deposited data

How the results depend on the processing

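The count of called members, 1, depended on the variance model and the scaling. It was 12, all lower, with a mean-variance trend (1.38% of all probe sets were called lower) and 3 with probe sets below the 40th percentile left out (0.548%). It was 0 in limma with the replicate block, quantile normalization, robust moderation, no moderation and at an adjusted p below 0.01, where 17 to 23 members were lower at an unadjusted p below 0.05. Leaving out 1 array, where the remaining array of its group was taken to vary as the intact group does, gave 0 called members each time (13 to 19 lower at an unadjusted p below 0.05). Of all probe sets, 96 were called. That was 806 with the trend, 312 with the filter, 5 at an adjusted p below 0.01, and 0 with the replicate block (3221 at an unadjusted p below 0.05), without moderation (2293) and with any array left out (1631 to 2779). Cyclic loess, median centring, array weights and 1 probe set per gene kept the call of Pclaf.

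The median log2 fold change of the members ran from -0.44 to -0.41 with an array left out, that of licensing genes from -0.58 to -0.50, of firing genes from -0.56 to -0.36 and of fork genes from -0.40 to -0.35. The fork median was -0.35 after cyclic loess. With 1 array left out, 5 estimates, none of them called and 4 of them between -0.16 and -0.03 with all arrays, changed sign: Pold1 (range -0.37 to 0.11) without vehicle replicate 2, Pole (-0.35 with all arrays, range -0.74 to 0.04) without deltamethrin replicate 1, and Prim1 (-0.18 to 0.07), Rfc3 (-0.40 to 0.08) and Lig1 (-0.105 to 0.055) without deltamethrin replicate 2. The cause was not tested. Replicate numbers did not pair the arrays by any label, and the difference between arrays correlated at 0.13 between groups. With the replicate block the adjusted p of Pclaf was 0.212.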
